A study of Mus musculus with 17 samples.

Results

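These data come from a CMS-IP experiment that mapped 5-hydroxymethylcytosine (5hmC) in mouse embryonic stem cells lacking the histone deacetylase Sirt6 (KO) and in wild-type cells (WT), both of strain 129. The authors deposited 1 table of 3780 windows of 500 bp, and all 3780 are described here. They were measured in 4 of the 17 libraries of the series: KO IP, KO input, WT IP and WT input, with 1 library per group. All 4 came from cells grown in ES medium, and no treatment, passage, clone or pooling is stated for them. The other 13 libraries are ChIP-seq for Sirt6, H3K9ac and H3K56ac with their whole-cell extracts. Windows are named by their position in mm9, the mouse build of the table, and their genes and bases were not analysed here.

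5hmC is made from 5-methylcytosine by the TET dioxygenases and is both a mark in its own right and a step on the way to losing methylation. Embryonic stem cells express Tet1 and Tet2 and are rich in the mark. Bisulfite turns 5hmC into cytosine 5-methylenesulfonate (CMS), which an antiserum then precipitates. The input is DNA that was not precipitated, so the ratio of IP to input reads at a window measures the pull-down, and the input on its own measures how much of that DNA was sequenced. The series title places Sirt6 upstream of TET activity, and the comparison asks where 5hmC differed without Sirt6.

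The windows were chosen by the authors on the difference between the IP libraries. Every window has a p under 0.001 for KO IP against WT IP in the authors' deposited table, the largest being 0.000998. There are 2218 windows higher and 1562 lower in KO. A KO to WT difference in IP reads, or in a ratio built on them, is therefore what the choice put there and is given as a description. The input libraries were not used in that choice, although IP and input of a genotype come from the same DNA. With 1 library per group there is no replicate check and no test between genotypes. Intervals are 95% and exact (Clopper-Pearson) for ratios of summed reads, Wilson for shares, and by the delta method on the log scale for ratios of 2 enrichments. Intervals of medians are read from the ranked windows by the binomial distribution. The intervals of ratios cover counting error only. Those of shares and medians treat each window as an independent draw, although windows are not replicates. None of them covers variation between cultures.

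Dividing the counts by RPKM (reads per kilobase per 1000000 reads) gave library sizes of 11413874 reads for KO IP, 23924232 for KO input, 13451714 for WT IP and 16623305 for WT input. The listed windows held 125592 KO IP and 98141 KO input reads, and 127156 WT IP and 83631 WT input reads. In the higher windows the median window held 36 IP and 26 input reads in KO, and 13 IP and 18 input reads in WT. In the lower windows it held 8.5 IP and 12 input reads in KO, and 39 IP and 16 input reads in WT. The lower windows thus rested on few KO reads.

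In KO cells most of the listed windows carried more IP than input signal. Per window, IP over input was computed on reads scaled to library size with 0.5 reads added to each count. As the KO input is the deeper library, this gives a KO window with 0 IP and 0 input reads a ratio of 2.10, and a WT window 1.24. There were 33 such windows in KO, all lower, and 7 in WT, all higher, and they have no measured enrichment. The KO ratio had a median of 2.58-fold over all windows, with quartiles at 1.32 and 4.22. The KO IP was enriched at least 2-fold in 2346 of 3780 windows, or 62.1% (60.5% to 63.6%), and at least 4-fold in 1045, or 27.6%. Of the 3730 windows with at least 1 KO input read, 2296 passed 2-fold (61.6%). The KO IP lay below the input in 725 windows (19.2%). Summed over all windows, KO IP reads stood at 2.68 times the input (2.66 to 2.70).

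In WT cells the enrichment over the same windows was lower. The median was 1.63-fold, with quartiles at 0.729 and 3.19. The WT IP was enriched at least 2-fold in 1596 windows, or 42.2% (40.7% to 43.8%), and at least 4-fold in 685, or 18.1%. Of the 3763 windows with at least 1 WT input read, 1586 passed 2-fold (42.1%). The WT IP lay below the input in 1258 windows (33.3%). The summed ratio was 1.88 (1.86 to 1.90). This order of the genotypes also reflects how many windows of each kind the table holds.

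The 2218 higher windows showed a KO enrichment set beside near-absent WT enrichment. In KO the median was 3.10-fold, with quartiles at 1.99 and 4.61, and the summed ratio was 2.90 (2.87 to 2.93). In WT the median was 0.922-fold, with quartiles at 0.431 and 1.69, and the summed ratio was 1.098 (1.08 to 1.11). At least 2-fold enrichment was seen in 1657 higher windows in KO (74.7%) and in 421 in WT (18.98%). At least 4-fold was seen in 734 in KO (33.1%) and in 83 in WT (3.74%). Every one of the 421 was also enriched in KO, so 1236 higher windows passed 2-fold in KO alone and 0 in WT alone. In WT, 1172 of the higher windows (52.8%) had less IP than input signal, against 138 in KO (6.22%).

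The 1562 lower windows were not the mirror image of that. In WT the median was 3.21-fold, with quartiles at 2.02 and 5.36, close to what KO showed in the higher windows. In KO the median was 1.57-fold, but the quartiles lay far apart, at 0.552 and 3.37. The KO IP was enriched at least 2-fold in 689 lower windows (44.1%) and at least 4-fold in 311 (19.9%). These counts include 49 windows with no KO input read, whose ratio rests on the added 0.5 reads and which all pass 2-fold. Of the 1513 with at least 1 KO input read, 640 passed 2-fold (42.3%) and 295 passed 4-fold (19.5%), with a median of 1.497-fold. The WT IP passed these levels in 1175 (75.2%) and 602 (38.5%). Of the lower windows, 666 (42.6%) passed 2-fold in both genotypes, 509 (32.6%) in WT alone and 23 (1.47%) in KO alone. The windows at 0 reads in both KO libraries make up 29 of the 666 and 4 of the 23. With at least 1 input read in both genotypes, the numbers were 621 of 1507 (41.2%) in both, 505 (33.5%) in WT alone and 17 (1.13%) in KO alone. In the 666 windows enriched in both, the median KO to WT input ratio was 0.479, and in the 509 enriched in WT alone it was 0.761. The KO input is the divisor in this split, so passing 2-fold in KO favours a low KO input and the order of these ratios is given by the split.

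**Figure D1:**
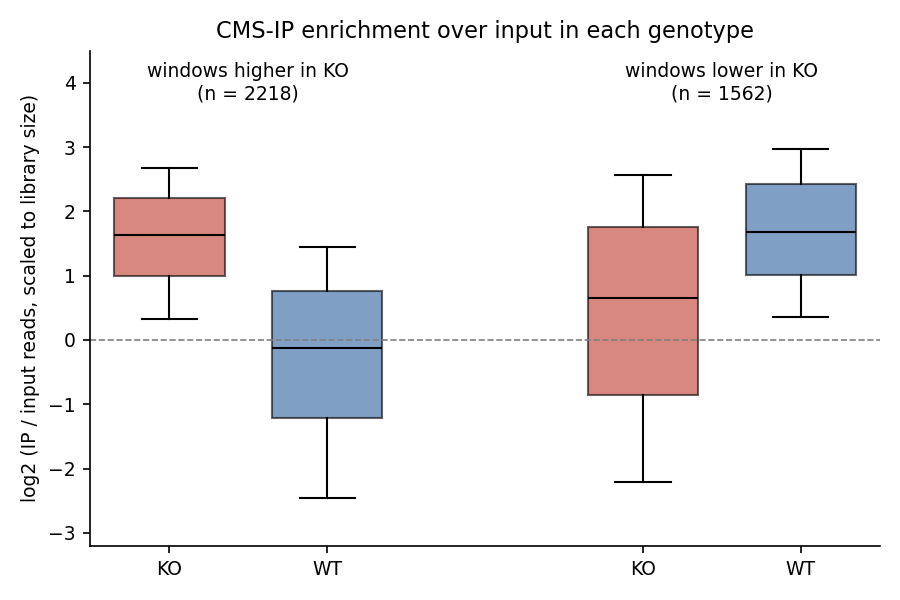
The vertical axis is log2 of IP over input reads scaled to library size, for KO and WT, in the 2218 windows higher and the 1562 windows lower in KO. Boxes span the quartiles with the median as a line, and whiskers reach the 10th and 90th percentiles over windows; in the lower windows the KO box spans -0.86 to 1.75, wider than the WT box at 1.01 to 2.42.

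The spread between windows was wider than counting error in all 4 sets. On the log2 scale the standard deviation (SD) over the higher windows was 0.95 in KO and 1.56 in WT, where the root mean square counting error was 0.41 in KO and 0.82 in WT. Over the lower windows the SD was 1.82 in KO and 1.05 in WT, against counting errors of 1.08 in KO and 0.52 in WT. The wide sets are those of the genotype with the fewer IP reads, which the choice of windows fixes.

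Median enrichment was smaller where the input was deeper in 3 of the 4 sets, step by step. In the higher windows the KO median was 5.97-fold with under 10 KO input reads, 3.94-fold with 10 to 19, 2.91-fold with 20 to 39 and 2.10-fold with 40 or more. In WT, over the same windows sorted by WT input, the medians were 1.09, 0.974, 0.891 and 0.654. In the lower windows the KO medians were 2.10, 1.43, 1.72 and 1.02, which do not fall at every step; the first of these sets holds all 33 windows at 0 reads in both KO libraries. The WT medians there were 5.36, 3.11, 2.60 and 1.73. The input count stands in the ratio it is sorted by, so the ratio and the depth are not independent here. At each depth the KO median lay above the WT median in the higher windows and below it in the lower windows.

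**Figure D2:**
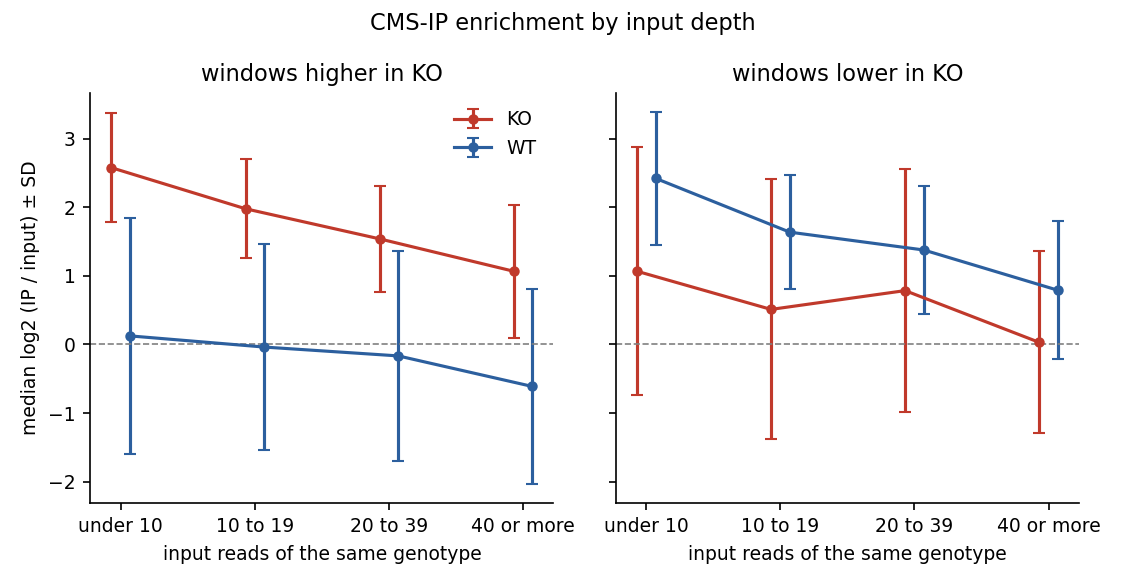
The horizontal axis groups windows by the input reads of the same genotype and the vertical axis is the median log2 of IP over input, for KO and WT, with bars of 1 SD over windows. In the higher windows KO lies above WT at every depth, and in the lower windows WT lies above KO; the medians of the higher windows in KO go down with depth to 1.07 at 40 or more input reads.

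The windows with the strongest KO enrichment were mostly, but not all, windows higher in KO. Among windows with at least 10 KO input reads, the highest ratio was on chromosome 19 from 61302001 to 61302500. It held 202 IP and 24 input reads in KO, and 133 IP and 32 input reads in WT. That is an enrichment of 17.6-fold (11.5 to 28.2) in KO and 5.14-fold (3.47 to 7.81) in WT. The next, on chromosome 19 from 6320501 to 6321000, is listed as lower in KO. It held 86 IP and 12 input reads in KO, and 199 IP and 36 input reads in WT, so its enrichment was 15.0-fold (8.17 to 30.2) in KO and 6.83-fold (4.77 to 10.03) in WT. This window, listed for fewer KO IP reads, had the higher ratio in KO, with an input ratio of 0.232 (0.110 to 0.455). It was picked on its KO ratio, which favours a low KO input, and the intervals of KO and WT overlapped. The third to the fifth, on chromosome 7 from 29652001, chromosome 4 from 43412001 and chromosome 9 from 21574501, had KO enrichments of 14.7-fold, 14.04-fold and 13.8-fold. Their WT enrichments were 3.71-fold, 0.945-fold and 3.01-fold. Only the window on chromosome 4, with 67 KO and 13 WT IP reads, had no WT enrichment among these 5.

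The 5 windows with the strongest WT enrichment, among those with at least 10 WT input reads, were all lower in KO and all still enriched in KO. The first lay on chromosome 5 from 97821001 to 97821500. It held 54 IP and 19 input reads in KO, and 161 IP and 13 input reads in WT, an enrichment of 5.96-fold (3.48 to 10.6) in KO and 15.3-fold (8.70 to 29.4) in WT. The others were on chromosome 1 from 191664501 (6.94-fold in KO and 13.96-fold in WT), chromosome 3 from 135217001 (5.84-fold in KO and 13.7-fold in WT), chromosome 14 from 63644501 (8.98-fold in KO and 11.4-fold in WT) and chromosome 1 from 16159501 (6.99-fold in KO and 11.4-fold in WT). In all 5 the intervals of KO and WT overlapped. Input in these 5 rested on 10 to 19 reads per library. The KO to WT input ratios ran from 0.748 (0.326 to 1.73) to 1.11 (0.474 to 2.74). All 5 intervals held 1 but were wide, so a level input is not shown.

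Some windows had IP reads in 1 genotype only. The KO IP held 0 reads in 181 of the lower windows (11.6%), where the WT IP held 12 to 75 reads with a median of 14. The KO input in these windows had a median of 7 reads, and in 61 of them it held 10 or more. In 33 of the 181 the KO input was at 0 as well. The WT IP held 0 reads in 130 of the higher windows (5.86%), where the KO IP held 10 to 78 reads with a median of 11. The WT input there had a median of 7 reads; it held 10 or more in 46 windows and 0 in 7. Most of these windows stand only just above the number of reads that the authors' limit on p required, and a count of 0 allows up to 3 reads.

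The input, which played no part in choosing the windows, differed between genotypes along the chromosomes. Over all windows the KO input stood at 1/2 or less of WT in 716 (18.9%) and at 2-fold or more in 177 (4.68%). In the higher windows the window median of the KO to WT input ratio was 0.997, with quartiles at 0.798 and 1.31. In the lower windows the window median was 0.562, with quartiles at 0.386 and 0.783. The KO input stood at 1/2 or less of WT in 664 lower windows (42.5%) and in 52 higher windows (2.34%). It was at least 2-fold above WT in 25 lower windows (1.60%) and 152 higher windows (6.85%). The input ratio of the lower windows was below that of the higher windows on all 20 chromosomes with both kinds of window. On chromosome 15 the values were only 0.920 and 0.921. On 10 of the 20 the interval of the lower windows lay wholly below that of the higher windows. On the other 10 the intervals overlapped, as on chromosome 1 with 0.629 and 0.657. Input and IP of a genotype share their DNA, and how far the input difference accounts for the IP difference was not tested.

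Listed windows were unevenly spread. Their window numbers imply 5277996 windows of 500 bp on chromosomes 1 to 19 and X. Per 10000 of these, chromosome 14 held 23.3 listed windows, chromosome 6 held 13.6, chromosome 11 held 12.9 and chromosome 19 held 12.8. Chromosomes 12 and 3 held 2.97 and 3.29, and chromosome X held 1.89. Chromosomes 14 and 1 held the most lower windows for their length, 20.7 and 8.19 per 10000, and chromosomes 6 and 11 the most higher windows, 11.2 and 10.9.

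In the listed windows the input ratio was even along some chromosomes and changed in steps along others. Bins pool higher and lower windows, so where these differ in input a bin's ratio also depends on its mix. In bins of 10 Mb that held at least 10 listed windows, 126 in all, the median KO to WT input ratio was 0.911, with quartiles at 0.788 and 1.00. Chromosome 1 was low throughout: its 12 bins lay between 0.509 and 0.695. On that chromosome the ratio was 0.657 (0.591 to 0.731) in the 23 higher windows and 0.629 (0.607 to 0.653) in the 323 lower windows, so both kinds of window stood at the same level. Chromosome 8 was also low from end to end, with 9 bins between 0.691 and 0.830, and with 0.781 (0.735 to 0.830) in its higher and 0.738 (0.691 to 0.788) in its lower windows. Chromosome 2 was even and close to the median of all bins, with 6 bins between 0.918 and 0.954.

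On other chromosomes the bins lay at more than 1 level. On chromosome 10 the 5 bins between 10 and 60 Mb lay at 1.198 to 1.34, and the 4 bins beyond 70 Mb at 0.667 to 0.990. Bins can average unlike stretches. The listed windows from 11169501 to 12828500 had 1.56 (1.34 to 1.83), and those from 17325501 to 20048500 had 1.04 (0.910 to 1.19). On chromosome 6 the 7 bins up to 100 Mb lay at 1.06 to 1.44, the next 4 at 0.875 to 1.02, and the bin from 140000001 at 1.47 (1.36 to 1.59). On chromosome 4 the bin from 40000001 stood at 0.596 (0.542 to 0.654) and the other 6 at 0.858 to 1.14. Chromosome 17 had 4 bins between 0.646 and 0.787. On chromosome 6 the ratio was 1.23 in the 335 higher and 0.481 in the 71 lower windows. In the same order it was 1.08 and 0.410 on chromosome 10, and 0.936 and 0.507 on chromosome 4. How far the mix of windows accounts for the levels of the bins was not tested.

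Bins with a low KO input were filled mostly with windows listed as lower in KO. Of the 126 bins, 30 had an input ratio under 0.75, and they held 986 lower and 126 higher windows (88.7% lower). The 78 bins between 0.75 and 1.1 held 321 lower and 1220 higher windows (20.8% lower), and the 18 bins above 1.1 held 57 lower and 489 higher windows (10.4% lower). The median enrichment was 2.69 in KO and 2.92 in WT in the low bins, 2.83 in KO and 1.37 in WT in the middle bins, and 2.82 in KO and 1.58 in WT in the high bins. The KO medians of the 3 sets of bins lay close together and the WT medians did not, while the mix of higher and lower windows differed between the sets. Across the 126 bins the input ratio and the IP ratio had a Spearman correlation of 0.685, given as a description, since all bins come from the same 4 libraries.

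**Figure D3:**
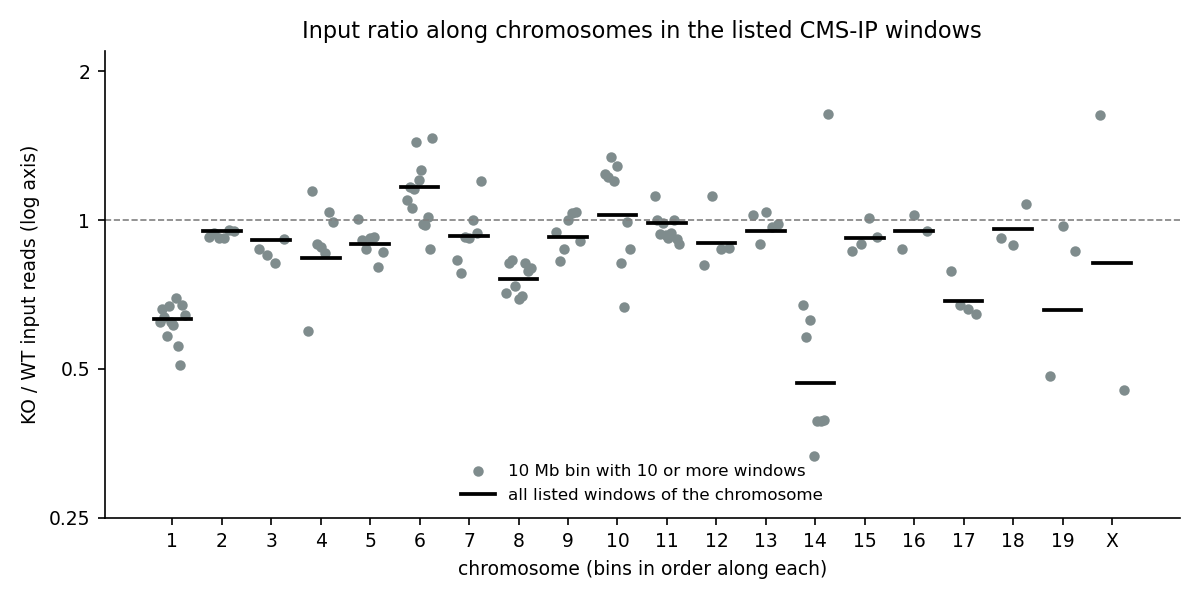
The vertical axis, logarithmic, is the KO to WT ratio of input reads scaled to library size, by chromosome. Grey points are 10 Mb bins with at least 10 listed windows, in their order along the chromosome, and black lines are all listed windows of the chromosome; chromosome 1 lies at 0.509 to 0.695, and chromosome 14 runs between 0.333 and 1.64.

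Chromosome 14 had the widest range of input ratios, and in its last bin both IP and input were higher in KO. The listing left out windows with a level IP, so the places of IP steps were not measured. From 55262501 to 56340000, 12 windows, all higher in KO, had an input ratio of 0.907 and an IP ratio of 2.41. From 58381501 to 66928000 these ratios were 0.565 and 0.426, and from 86605501 to 93343500 they were 0.338 and 0.376. The chromosome's bins from 60000001 and 70000001 had input ratios of 0.581 and 0.627. From 80000001 to 120000000 the 4 bins had 0.333, 0.393, 0.393 and 0.395, with 411 listed windows, all of them lower in KO. The last bin, from 120000001, stood at 1.64 (1.449 to 1.85), with 30 of 34 windows higher in KO. In the bin from 100000001 the libraries held 4179 IP and 3637 input reads in KO, and 13563 IP and 6431 input reads in WT. In the last bin they held 1177 IP and 877 input reads in KO, and 652 IP and 372 input reads in WT.

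**Figure D4:**
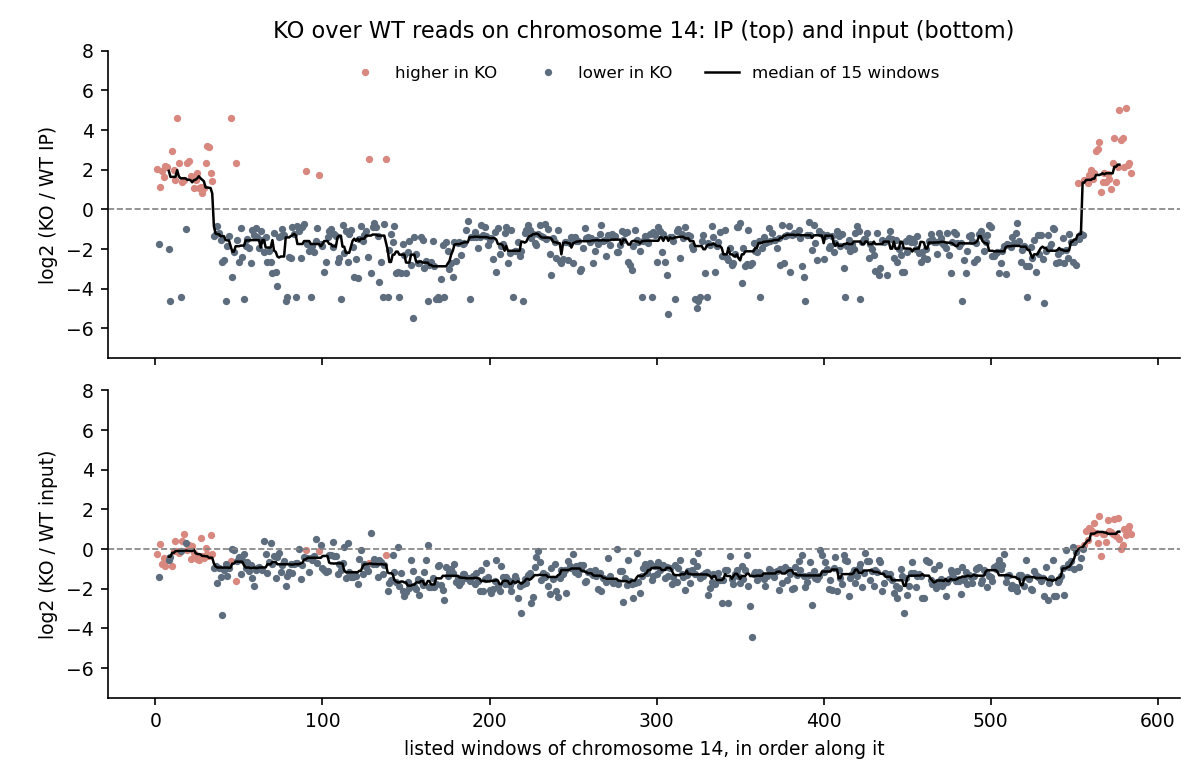
The 584 listed windows of chromosome 14 are drawn in order along the chromosome, with log2 of the KO to WT ratio on the vertical axis for the IP (top) and the input (bottom); red points are higher and dark points lower in KO, and the line is the median of 15 windows. The IP panel has no windows near 0 because the authors listed only differing windows, whereas the input panel runs low over the 411 lower windows of 4 bins and turns above 0 at the end, where its ratio is 1.64.

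Chains of listed windows, at least 10 with gaps of at most 1 Mb, give a similar picture at a finer scale, with the enrichments beside it. There were 85 such chains. Those named here were picked on their input ratio. The KO to WT enrichment ratio is the IP ratio divided by the input ratio. The pick itself therefore raises it in the lowest chains and lowers it in the highest. The 3 with the lowest input ratios lay on chromosome 14. From 86605501 to 93343500, 92 windows had an input ratio of 0.338 (0.316 to 0.361), and the IP stood at 2.53 times the input in KO and 2.28 times in WT. From 113772501 to 117338000, 13 windows had 0.372 (0.318 to 0.435), with enrichments of 1.38 in KO and 1.51 in WT. From 97249501 to 108091500, 283 windows had 0.393 (0.378 to 0.408), with 2.45 in KO and 2.66 in WT. All of these 388 windows are listed as lower in KO, while the ratio of KO to WT enrichment was 1.11 (1.02 to 1.22), 0.919 (0.730 to 1.16) and 0.921 (0.877 to 0.968).

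The next lowest chains were on chromosomes X (165597501 to 166435500) and 19 (4232001 to 10469000). The one on X, 10 windows that were all lower in KO, had an input ratio of 0.454 (0.398 to 0.517) and enrichments of 2.91 in KO and 2.58 in WT. The one on chromosome 19, 82 windows of which 76 were lower, had 0.491 (0.458 to 0.526), with 3.96 in KO and 3.76 in WT. The KO to WT enrichment ratio was 1.13 (0.957 to 1.33) and 1.05 (0.970 to 1.14), so both intervals held 1.

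The 5 chains with the highest input ratios were made up almost wholly of higher windows. The top one spanned positions 121226001 to 125075500 of chromosome 14, with an input ratio of 1.64. On chromosome X, 70599001 to 71456000 had 1.63. On chromosome 10, 11169501 to 12828500 had 1.56. Chromosome 6 had a pair of them, with 1.53 over 70570501 to 71622000 and 1.39 over 140238501 to 145507000. In these the KO enrichment still lay above that of WT. It was 2.81 in KO and 2.17 in WT on chromosome 14, and 3.60 in KO and 2.83 in WT on chromosome X. It was 2.54 in KO and 1.67 in WT on chromosome 10. On chromosome 6 it was 3.61 in KO and 2.33 in WT from 70570501, and 2.24 in KO and 1.24 in WT from 140238501. Their enrichment ratios of 1.27 to 1.803 lay below the 2.64 (2.60 to 2.69) of all higher windows, which have a level input.

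Lower windows differed between chromosomes in how far KO enrichment fell short of WT. Over all 1562, KO enrichment summed to 2.10 (2.07 to 2.14) and WT enrichment to 3.003 (2.97 to 3.04), a ratio of 0.701 (0.686 to 0.716). On chromosome 14 the 519 lower windows had 2.39 in KO and 2.65 in WT, with an input ratio of 0.411 (0.399 to 0.423). On chromosome 19 the 92 lower windows had 3.78 in KO and 4.11 in WT, with an input ratio of 0.492. On chromosome X the 21 lower windows had 3.01 in KO and 3.19 in WT, with an input ratio of 0.494. Chromosome 1, with 323 lower windows, had 2.42 in KO and 3.64 in WT at an input ratio of 0.629. The shortfall was larger on some chromosomes with an input nearer to level: on chromosome 5 the 22 lower windows had 0.935 in KO and 3.16 in WT (input ratio 0.821), and on chromosome 15 the 14 lower windows had 1.24 in KO and 3.56 in WT (input ratio 0.920). It was also large on chromosome 6, with 2.02 in KO and 4.56 in WT at an input ratio of 0.481, and on chromosome 4, with 1.06 in KO and 2.88 in WT at 0.507, so chromosomes with like input ratios differed in it. A window had to differ in IP to be listed, so where the input is level the enrichment has to differ; this order is a description of the list.

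**Figure D5:**
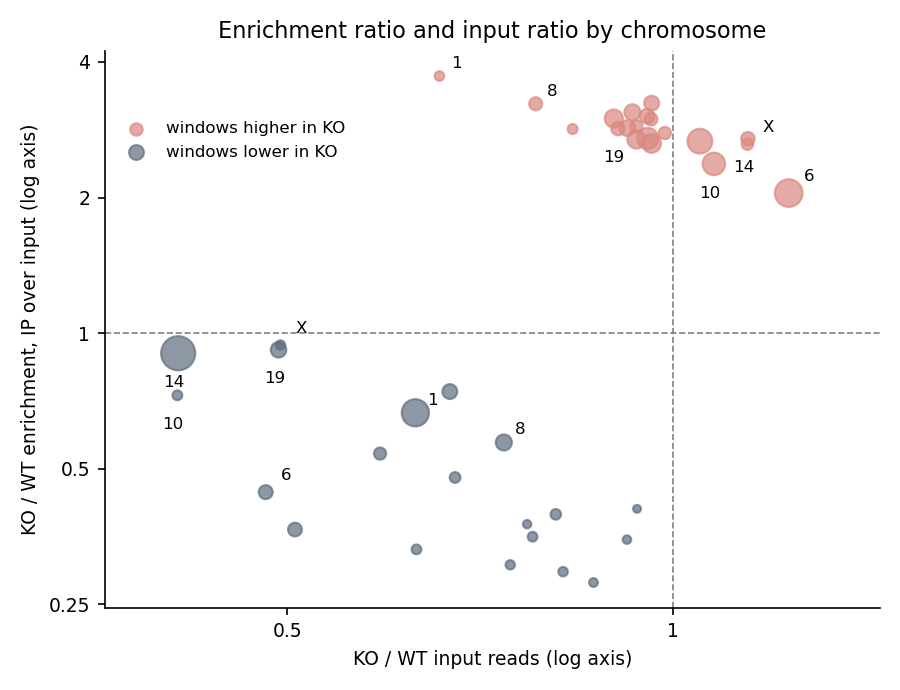
Each point is the higher or the lower windows of 1 chromosome, with the KO to WT input ratio on the horizontal axis and the KO to WT ratio of IP over input on the vertical axis, both logarithmic; areas grow with the number of windows and some chromosomes are numbered. Lower windows of chromosomes 14, 19 and X sit near 1 on the vertical axis at input ratios of 0.411, 0.492 and 0.494, and the input stands in both axes.

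Counted window by window, KO enrichment was at least that of WT in 267 of the 1562 lower windows, or 17.1% (15.3% to 19.04%). With at least 1 input read in both genotypes it was 250 of 1507, or 16.6% (14.8% to 18.6%). The share was 27.9% on chromosome 14 (145 windows; 24.3% to 31.9%) and 34.8% on chromosome 19 (32 windows; 25.8% to 44.9%). It was 11.5% on chromosome 1 (37 windows; 8.43% to 15.4%) and 8.44% on the other chromosomes (53 of 628 windows; 6.51% to 10.9%). These other chromosomes hold 32 of the 33 windows at 0 reads in both KO libraries. With at least 1 input read in both genotypes their share was 6.41% (37 of 577 windows; 4.69% to 8.71%), and that of chromosome 14 was 27.9%, of chromosome 19 was 35.2% and of chromosome 1 was 11.5%. The input ratio was 1/2 or less in 68.4% of the lower windows on chromosome 14, 50.0% on chromosome 19, 22.9% on chromosome 1 and 30.1% elsewhere.

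The lowest single input ratios were windows with no KO input reads at all. Among windows with at least 20 input reads in both genotypes together, the lowest was on chromosome 10 from 81089501 to 81090000. It held 0 IP and 0 input reads in KO, and 30 IP and 42 input reads in WT. Taking 3 reads as the limit of a count of 0 in that library, and the WT counts as fixed, the KO input was at least 20.1-fold lower. The KO IP was at least 8.49-fold lower on the same terms. The exact interval of the input ratio, which covers counting error in both libraries, ran from 0 to 0.0638. Also at 0 KO input reads were the windows on chromosome 6 from 125685501 (29 WT input reads), chromosome 4 from 43818001 (24 reads), and chromosome 10 from 81089001 (22 reads) and 81085501 (20 reads). The KO IP held 0 reads in 4 of these 5 windows and 1 read in the one on chromosome 4. In WT their enrichment was 0.875 to 2.53, so none of them was among the strongly enriched windows.

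At the other end, the window on chromosome 11 from 6395501 to 6396000 held 22 IP and 42 input reads in KO, and 0 IP and 1 input read in WT, an input ratio of 29.2 (4.96 to 1180). Its KO enrichment was 1.098 (0.624 to 1.88), so it is listed as higher in KO without being enriched there. The window on chromosome 11 from 19781501 held 3 IP and 27 input reads in KO, and 22 IP and 1 input read in WT, and is listed as lower in KO. The others of these 5 were on chromosome 3 from 130946501 (19 KO and 1 WT input reads), chromosome 6 from 53073501 (19 KO and 2 WT) and chromosome 7 from 147093001 (83 KO and 11 WT). A single window, on chromosome 7 from 58373001, held 0 input reads in both libraries, with 1 IP read in KO and 16 in WT, and has no measured enrichment.

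The deepest input was a block on chromosome 17 from 39980001 to 39985500, where 8 windows each held at least 300 reads in both inputs. Together they held 1598 IP and 3235 input reads in KO, and 2998 IP and 3335 input reads in WT. The enrichment was 1.04 (0.975 to 1.0997) in KO and 1.11 (1.06 to 1.17) in WT, and the input ratio 0.674 (0.642 to 0.708), close to the IP ratio of 0.628 (0.591 to 0.668). All 8 are listed as lower in KO. These windows were picked after their values were seen, and they decide the chromosome: without them the other 75 lower windows of chromosome 17 had enrichments of 1.67 in KO and 2.71 in WT, against 1.27 in KO and 1.72 in WT with them, at an input ratio of 0.662 (0.622 to 0.705).

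Set beside the Sirt6 ChIP-seq of WT cells, the higher windows near a Sirt6 peak had less IP over input in both genotypes than those away from one. Of all 3780 listed windows, 245 lay within 1000 bp of a Sirt6 peak, among them 48 of the 1562 lower windows. Of the 2218 higher windows, 197 lay near one. Their median log2 enrichment was 1.25 in KO and -0.82 in WT, with summed ratios of 2.49 in KO and 0.786 in WT. In the other 2021 higher windows the medians were 1.66 in KO and -0.07 in WT, with summed ratios of 2.95 in KO and 1.14 in WT. The KO to WT input ratio was 0.893 (0.862 to 0.924) near Sirt6 peaks and 1.02 (1.00 to 1.03) away from them. The 197 windows held 7255 KO and 5648 WT input reads, and the other 2021 held 63873 and 43700. These sets were not matched for input depth, on which the ratio depends. The 48 lower windows near a Sirt6 peak had medians of 0.99 in KO and 2.15 in WT, against 0.63 in KO and 1.68 in WT in the other 1514. Their summed ratios were 1.99 in KO and 3.48 in WT, against 2.11 in KO and 2.99 in WT. The 48 held 758 KO input reads and the deep block of chromosome 17 held 3235, so most of that block lies in the other 1514. It was not left out here. Without it the summed ratios of all lower windows rose to 2.25 in KO and 3.21 in WT. With overlap in place of distance, the KO median was 0.33 near and 0.66 away. With peaks of -log10 q of 10 or more it was 0.70 near and 0.65 away. The order in KO thus turned with the measure and the setting. Whether these differences exceed the variation between cultures cannot be told with 1 library per group.

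Acetylation peaks of untreated cells lay near few listed windows. Within 1000 bp of a KO H3K9ac peak were 17 higher windows (0.766%) and 37 lower windows (2.37%), against 1.43% of all listed windows. For WT H3K9ac peaks it was 4 higher (0.180%) and 23 lower windows (1.47%), against 0.714% of all. For KO H3K56ac peaks it was 3 higher (0.135%) and 32 lower windows (2.05%), against 0.926% of all, and for WT H3K56ac peaks 6 higher (0.271%) and 24 lower windows (1.54%), against 0.794% of all. The difference between the shares was not tested. Of the lower windows counted, 8, 6, 6 and 5 belong to the deep block of chromosome 17, in the order of these lists; without it the shares of lower windows were 1.87%, 1.09%, 1.67% and 1.22%. The 37 lower windows near KO H3K9ac peaks had a summed enrichment of 1.32 in KO and 1.52 in WT and an input ratio of 0.638 (0.612 to 0.664). Without the 8 deep windows the other 29 had 2.02 in KO and 2.36 in WT, with an input ratio of 0.562 (0.522 to 0.605). The lower windows away from these peaks had 2.26 in KO and 3.25 in WT, with 0.532 (0.523 to 0.542). The headers of the acetylation peak lists name no control file.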

How the data were processed

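Genomic DNA of KO and WT cells was sheared, treated with bisulfite and precipitated with an antiserum to CMS, per the labels' protocols. The authors deposited read counts and RPKM per 500 bp window for the 4 libraries. The deposited table also gives edgeR's log2 fold change and log2 abundance, and its p-values, KO IP over WT IP. The submitters' processing notes name edgeR and build mm9. For these libraries the aligner, and whether a read counts in more than 1 window, were not stated in the sources; BWA 0.5.9 is named for the ChIP-seq libraries. Among the listed windows 607 pairs touch. The header line repeated once in the table was skipped. Peaks of 5 ChIP-seq lists entered by position, with the deposited −log10 q; they were called with MACS2 2.0.10 on mm9, per the submitters' processing notes.

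Library sizes were taken from counts and RPKM. Ratios used reads scaled to these sizes, with 0.5 reads added per window. All columns of per-sample values were used (0 left out). The rule for named windows took the 5 highest enrichments per genotype (10 or more input reads) and the 5 lowest and highest input ratios (20 or more); chains and bins needed 10 windows. The members and lists were chosen with earlier results of these data known. Interval coverage was checked on simulated data. Tools were scipy 1.17.1, numpy 2.4.6, pandas 2.3.3 and matplotlib 3.10.9 under Python 3.11.15. Alternatives changed the pseudocount, input minimum, chromosomes, p limit, joining of windows, bin size and peak distance.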

Additional observations from a re-analysis of the deposited data

Results flagged for a closer look

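In 4 results on the windows higher in KO, IP over input lay above the input in KO and below it in WT, with intervals that leave out a ratio of 1; the difference was not tested, since each genotype has 1 library, and the windows had been listed for their IP difference. The median log2 enrichment of all 2218 higher windows was 1.63 in KO and -0.12 in WT. Its direction in WT rests on the measure, as the summed WT ratio of these windows was 1.098 (1.08 to 1.11), above 1. Without windows at 0 reads in any library, the interval of the WT median held 0 (-0.082 to 0.050). It also held 0 in the higher windows with an adjusted p under 0.1 (-0.42 to 0.215). On chromosome 13 the 84 higher windows had a summed IP over input ratio of 2.19 in KO and 0.675 in WT. On chromosome 5 the 134 higher windows had 2.79 in KO and 0.932 in WT. The 197 higher windows within 1000 bp of a WT Sirt6 peak had 2.49 in KO and 0.786 in WT. The KO ratio of the higher windows was above 1 on all 20 chromosomes with at least 10 of them. The WT ratio was below 1 on 8 of these, and its interval lay wholly below 1 on 2.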

How the results depend on the processing

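No paired analysis was possible because each group holds 1 library, and for the same reason none could be left out. Intervals of ratios cover counting error only, and those of medians and shares treat windows as independent. At a median of 8.5 KO IP reads in the lower windows a single ratio is poorly fixed. With 10 or more input reads in each genotype (2604 windows), the median log2 enrichment was 1.503 in KO in the higher windows and 1.47 in WT in the lower windows. The input ratio there was 0.561 in the lower windows and turned to 0.968 in the higher ones, against 1.0015 in all higher windows, so no direction is given for it; 889 windows passed 2-fold in WT. Without chromosomes 1 and 14, the WT median in the lower windows was 1.89, the input ratio 0.634, and 982 windows passed 2-fold in WT. In the 139 windows that the authors' deposited table gives an adjusted p under 0.1, the KO medians were 1.96 (higher windows) and 1.07 (lower; the value that equal IP and input counts give, also at 0 reads in both, which 10 of these 65 lower windows have), the WT median of the lower windows 2.25, the input ratios 1.02 and 0.510, and 107 windows passed 2-fold in KO and 69 in WT, fewer because fewer windows enter. The input ratio of chromosome 6 turned to 0.912 (0.816 to 1.02) in these windows. The next 3 choices were made after seeing the data. Without windows at 0 reads in any library, the WT median of the higher windows was -0.024 and the KO median of the lower windows 0.80; without the 8 deep windows of chromosome 17, the lower windows' input ratio was 0.534. With the 0.5 added reads scaled to library size, so that 0 over 0 reads gives a ratio of 1, the KO median of the lower windows was 0.51, with 628 of them at 2-fold or more in place of 689. In the 65 lower windows above this setting gave a KO median of 0.30. Overlap with a Sirt6 peak in place of a distance of 1000 bp gave a KO median of 1.07 in the higher windows. Otherwise the cause was not tested. The other 58 of 78 recomputed main values stayed within their interval, or within 1.5 times for counts; they include every one under a pseudocount of 1, on autosomes only, with touching windows joined and in 5 Mb bins.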

Other observations

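The listed windows were deep in both inputs. They held a mean of 26.0 reads per window in the KO input and 22.1 in the WT input. If each read were counted once, the average window of chromosomes 1 to 19 and X would hold 4.53 reads in the KO input and 3.15 in the WT input. How reads were assigned to windows is not stated, and reads counted in more than 1 window would raise these averages. All reads of each library were divided over these chromosomes, so leaving out reads that lie elsewhere would lower them. The averages are therefore approximate. A listed window needed enough IP reads to reach the authors' limit on p.

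Chromosome Y held 2 listed windows, both higher in KO. Together they held 153 IP and 321 input reads in KO, and 88 IP and 222 input reads in WT. Their summed enrichment was 0.999 (0.819 to 1.21) in KO and 0.490 (0.378 to 0.630) in WT, so neither genotype had more IP than input signal there, and the input was level between genotypes, with a ratio of 1.00 (0.844 to 1.198).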
